A study of Oryzias latipes with 6 samples.

Results

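The genes described here encode voltage-gated sodium channels (scn), voltage-gated calcium channels (cacn), hyperpolarization-activated cyclic nucleotide-gated channels (HCN) and the sodium leak channel NALCN. They were chosen by symbol: every gene in the authors' deposited tables whose symbol, in upper or lower case, begins with scn plus a digit, with cacn, with hcn plus a digit or with nalcn. This rule found 42 of 24365 genes, and it used no measured value. They are 5 sodium channel alpha and 4 sodium channel beta subunits, 4 Cav1 and 3 Cav2 pore subunits, 5 alpha2-delta, 6 calcium channel beta and 11 gamma subunits, 3 HCN channels and NALCN. Cav3 (T-type) channels and genes known only by an identifier were not analysed here.

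Sodium channel alpha subunits carry the rising phase of the action potential and calcium channels couple depolarization to transmitter release, calcium signalling and gene expression. HCN channels open on hyperpolarization and set resting conductance and rhythm, and NALCN carries a background sodium current. Beta, alpha2-delta and gamma subunits tune trafficking, gating or, for several gamma subunits, AMPA-type glutamate receptors instead of calcium channels. These roles are known mostly from mammals, and medaka carries duplicated copies of many of the genes.

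Whole brains came from adult male Japanese medaka (Oryzias latipes), all of the F1 generation and 6 months old. In the control lineage (3 fish) the parents had been held in solvent, and in the BaP lineage (3 fish) they had been held in water with benzo[a]pyrene (BaP, a combustion-derived aromatic hydrocarbon) at 1 µg/L, in both cases for 21 days. The offspring of both lineages lived in clean water, so the comparison asks what differs in the brains of offspring of exposed parents. Exposure of eggs or sperm within the parents was not examined here. Single nuclei were profiled with droplet-based 3' RNA-seq, and the authors' deposited tables compare the lineages in each of 14 clusters of nuclei.

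Each deposited table gives, per gene, a log2 fold change (BaP over control lineage), a mean level, a p-value and a p-value adjusted over all 24365 genes. No value per fish was analysed here, so no result below has an error across the 3 fish of a lineage. The arithmetic of the authors' deposited tables was taken as that of a test which counts nuclei as replicates, as set out with the processing. The p-values then measure spread among nuclei and not among fish. Under that assumption 7512 nuclei were worked out, 2429 of the control and 5083 of the BaP lineage, with 684 to 1905 UMIs (unique molecular identifiers, single counted RNA molecules) per nucleus by cluster. The labels name a target of 8000 nuclei per sample. Mean levels in each lineage followed from that assumption, in CPM (UMIs scaled to the worked-out depth). Each has an exact Poisson 95% interval that covers counting error only. The levels of the lineages do not sum to the same total. In cluster 3 they summed to 889760 CPM in the control and 1152946 CPM in the BaP lineage, and in cluster 2 to 1174275 and 1025263 CPM. Levels compared between the lineages below carry this offset. "Called" means that the authors' adjusted p was under 0.05.

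The clusters were read from marker genes. Cluster 3 was glutamatergic neuron-like (5 of 7 markers at least 2 times the level of the other clusters), cluster 5 cerebellar granule neuron-like (6 of 8), cluster 6 oligodendrocyte-like (7 of 8) and cluster 9 radial glia-like (7 of 10). Cluster 1 combined markers of GABAergic (8 of 9) and peptidergic (5 of 7) neurons. Cluster 7 was led by keratins and cluster 12 by olig1. The 10 leading genes of cluster 10 included tcf7l2, ranked 10th. Those of cluster 11 included GRID2IP (2nd), slc1a3b (3rd, from the radial glia list) and aldoca (6th). Cluster 8 held endothelial (6 of 7) and erythrocyte (4 of 4) markers, and the remaining clusters are given by number.

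Channel RNA was spread very unevenly over the brain. The 42 genes summed to 72002 UMIs by the calculation from the authors' deposited tables, from 10 UMIs for cacna1sb to 11803 for cacna1ab, with 19 genes above 1000 UMIs and 11 below 100. Their summed level over both lineages, calculated from the authors' deposited tables, was highest in cluster 11 at 13615 CPM, followed by cluster 4 at 11221 CPM, cluster 10 at 11210 CPM and the granule neuron-like cluster 5 at 9939 CPM. In the control lineage alone, cluster 11 was at 8055 CPM, below clusters 10 (9471 CPM), 4 (8762 CPM) and 5 (8730 CPM). In the BaP lineage cluster 11 was at 15567 CPM. Over both lineages the summed level was lowest in the keratin-led cluster 7 at 2060 CPM and the oligodendrocyte-like cluster 6 at 2374 CPM. Of the 25 genes detected in every cluster, 12 were lowest in cluster 7 and 7 in cluster 6. Treatment of free RNA is not stated, so levels in cluster 7 serve as the low reference. Levels by cluster are over both lineages together except where a lineage is named. These levels are descriptions across clusters of the same 6 fish, and differences between clusters were not tested.

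**Figure D1:**
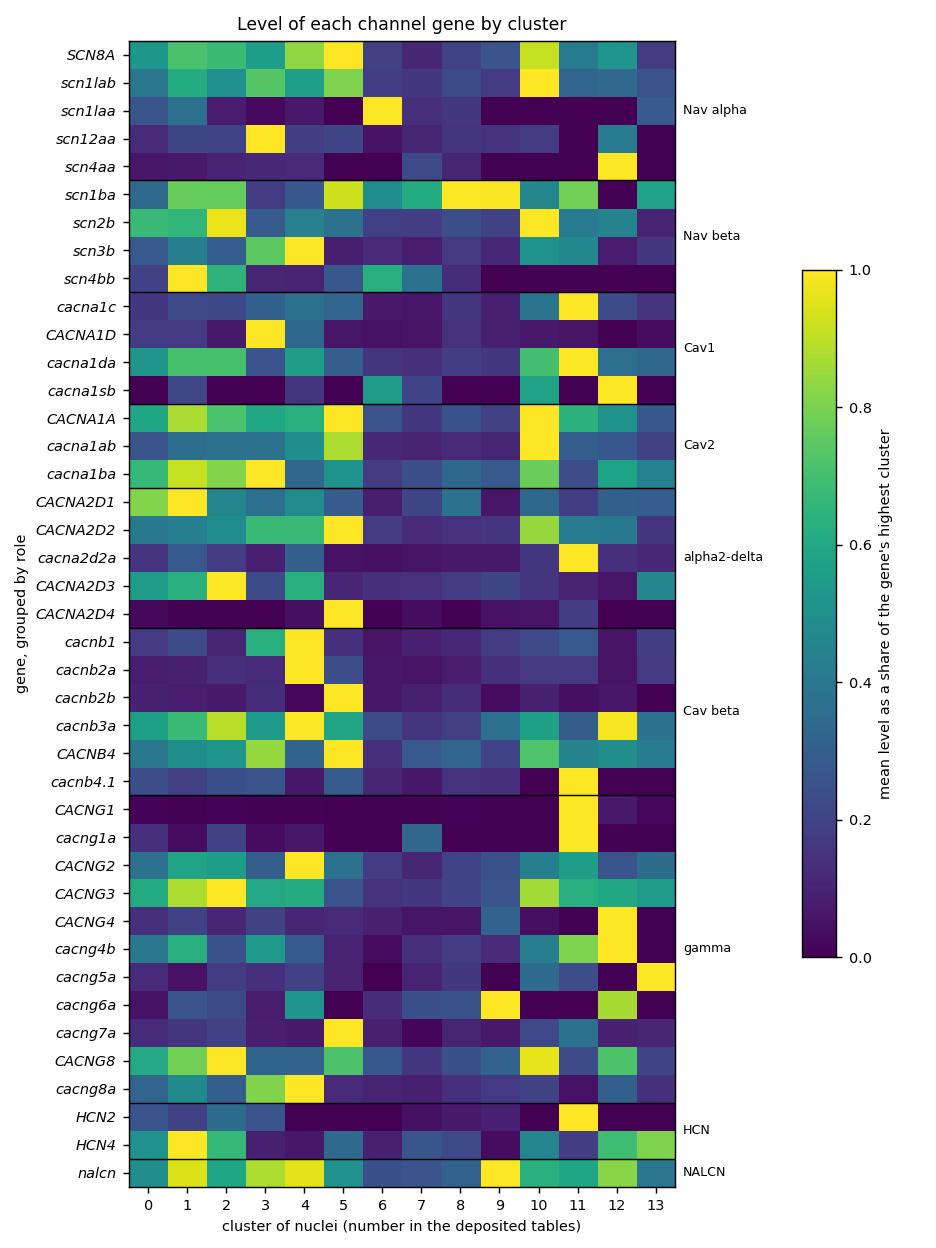
Mean level of 41 of the 42 channel genes (rows, grouped by role) in the 14 clusters (columns), calculated from the authors' deposited tables, as a share of the gene's highest cluster. The scale runs from 0 to 1. The highest level falls in cluster 5, 11 or 4 for many of the genes, while clusters 6 and 7 are dark in most rows.

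Among sodium channel alpha subunits, SCN8A encodes Nav1.6, the main channel of the axon initial segment and nodes in mammals. Its level, calculated from the authors' deposited tables, was 1409 CPM (95% counting interval 1317 to 1506, 874 UMIs) in the granule neuron-like cluster 5 and 1287 CPM (95% counting interval 1143 to 1439, 298 UMIs) in cluster 10. These intervals overlap, and the lowest level was 149.7 CPM in cluster 7. scn1lab, a fish relative of the mammalian SCN1A group, followed a like order, with 437 CPM in cluster 10, 352 CPM in cluster 5 and 70.5 CPM in cluster 7, calculated from the authors' deposited tables. Its paralog scn1laa was rare and highest in the oligodendrocyte-like cluster 6, at 45.2 CPM (95% counting interval 26.1 to 71.7, 17 UMIs) against 16.7 CPM in cluster 1, calculated from the authors' deposited tables. scn12aa was highest in the glutamatergic neuron-like cluster 3 at 58.8 CPM (95% counting interval 44.7 to 76.8, 56 UMIs), calculated from the authors' deposited tables. scn4aa, the muscle-type subunit, gave 12 UMIs in all by the same calculation.

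The beta subunits are single-pass partners that anchor and modulate the alpha subunits. scn2b was highest in clusters 10 and 2, at 352 CPM and 342 CPM, calculated from the authors' deposited tables. scn3b was highest in cluster 4 at 291 CPM and cluster 3 at 218 CPM, calculated from the authors' deposited tables. scn1ba and scn4bb were near the detection limit, with 98 and 54 UMIs by the calculation from the authors' deposited tables.

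L-type (Cav1) channels carry slow, dihydropyridine-sensitive calcium current. cacna1c (Cav1.2) stood far above its other values in cluster 11, at 3644 CPM (95% counting interval 3364 to 3945, 619 UMIs) against 1402 CPM in cluster 10, calculated from the authors' deposited tables. cacna1da, a Cav1.3 gene, was also highest in cluster 11, at 345 CPM against 245 CPM in cluster 1, calculated from the authors' deposited tables. In the control lineage alone, cacna1da was at 118 CPM (5 UMIs) in cluster 11 and 209.6 CPM in cluster 1. Its paralog CACNA1D instead marked the glutamatergic neuron-like cluster 3, at 319 CPM (95% counting interval 284 to 357, 302 UMIs) against 106 CPM in cluster 4, calculated from the authors' deposited tables. The Cav1.3 paralogs thus peaked in different clusters. cacna1sb, the skeletal-muscle channel, gave 10 UMIs in all by the same calculation.

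Cav2 channels trigger transmitter release at synapses. cacna1ab and CACNA1A, both Cav2.1 (P/Q-type) genes, were highest in clusters 10 and 5. For cacna1ab the levels were 3396 CPM (95% counting interval 3164 to 3642, 788 UMIs) and 2974 CPM (95% counting interval 2839 to 3112, 1844 UMIs), calculated from the authors' deposited tables. For CACNA1A they were 763 CPM and 764 CPM, calculated from the authors' deposited tables. The shares of reads that such near-copies could exchange are not known. cacna1ba (Cav2.2, N-type) differed in order, with 423 CPM in cluster 3 and 385 CPM in cluster 1, calculated from the authors' deposited tables.

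Several auxiliary subunits were concentrated in 1 cluster. The alpha2-delta gene cacna2d2a reached 4745 CPM (95% counting interval 4425 to 5087, 806 UMIs) in cluster 11 against 1451 CPM in cluster 4, the next highest, calculated from the authors' deposited tables. CACNA2D4 reached 68.2 CPM (95% counting interval 48.8 to 91.5, 42 UMIs) in cluster 5 and 12.6 CPM in cluster 11, calculated from the authors' deposited tables. It leads the genes of cluster 5, so this level describes the cluster itself. Alpha2-delta subunits are extracellular and bring calcium channels to the surface. Among beta subunits, which chaperone the pore from inside the cell, cacnb2a peaked in cluster 4 at 1072 CPM against 256 CPM in cluster 5, calculated from the authors' deposited tables. Its paralog cacnb2b peaked in cluster 5 at 171 CPM against 22.7 CPM in cluster 3, calculated from the authors' deposited tables. The paralogs cacnb2a and cacnb2b therefore differed in their leading cluster, as the Cav1.3 paralogs did.

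The gamma family holds both muscle-type calcium channel subunits and the transmembrane AMPA receptor regulatory proteins (TARPs), which in mammals include the products of CACNG2 (stargazin), CACNG3, CACNG4 and CACNG8. CACNG1, in mammals the gamma subunit of the skeletal-muscle calcium channel, was concentrated in cluster 11 at 462 CPM (95% counting interval 363 to 573, 78 UMIs) against 32.4 CPM in cluster 12, calculated from the authors' deposited tables. Its total was 108 UMIs, of which cluster 11 held 78 by the same calculation. CACNG1 is among the 10 leading genes of that cluster, so this level describes the cluster itself. CACNG2 was highest in cluster 4 at 821 CPM and cluster 1 at 480.0 CPM, calculated from the authors' deposited tables. cacng8a was highest in clusters 4 and 3, at 676 CPM and 549 CPM, while its paralog CACNG8 was highest in clusters 2 and 10, at 191 CPM and 184 CPM, calculated from the authors' deposited tables. cacng7a peaked in cluster 5 at 323 CPM against 121 CPM in cluster 11, calculated from the authors' deposited tables.

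HCN4 was highest in cluster 1 at 60.9 CPM, calculated from the authors' deposited tables. HCN2 gave 42 UMIs in all by the same calculation. nalcn was highest at 267 CPM in the radial glia-like cluster 9 and 256 CPM in cluster 4, and lowest at 64.7 CPM in cluster 6, calculated from the authors' deposited tables. The radial glia-like cluster and cluster 4 were thus at about the same level.

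Between the lineages, 5 channel genes were called higher in nuclei of BaP-lineage fish and no channel gene was called lower. These were SCN8A in clusters 0, 1 and 3 and CACNA1A in clusters 0 and 2, in the authors' deposited tables. The others were cacna1ab in clusters 1 and 4, cacna1c in cluster 3 and CACNG2 in cluster 4. The 5 genes encode the pore subunits of Nav1.6, Cav2.1 and Cav1.2 and the TARP stargazin. The log2 fold changes of the 9 calls ran from 0.32 to 1.38 in the authors' deposited tables. By the calculation from them, the called genes rested on 540 to 2821 UMIs per cluster.

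Of 525 pairs of a channel gene and a cluster in which it was detected, 9 were called higher (1.71%), where 0.186% of all detected pairs of gene and cluster were, in the authors' deposited tables. No channel gene was called lower, against 0.214% of all detected pairs. All 394 pairs called higher lay above the median level of detected genes in their cluster, so the same was counted there. At that level, 9 of 379 pairs were called higher (2.37%), against 0.372% of all genes, and none lower, against 0.415%, in the authors' deposited tables. Without the authors' adjustment, 69 of the 525 pairs had p under 0.05 in the higher and 6 in the lower direction (13.1% and 1.14%), against 2.97% and 1.92% of all detected pairs in the authors' deposited tables. The members share the fish and in part the nuclei, so the pairs are not independent, and no test of the list was made. Leaving out cluster 3, with 71 control nuclei, left 7 calls in 4 genes.

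**Figure D2:**
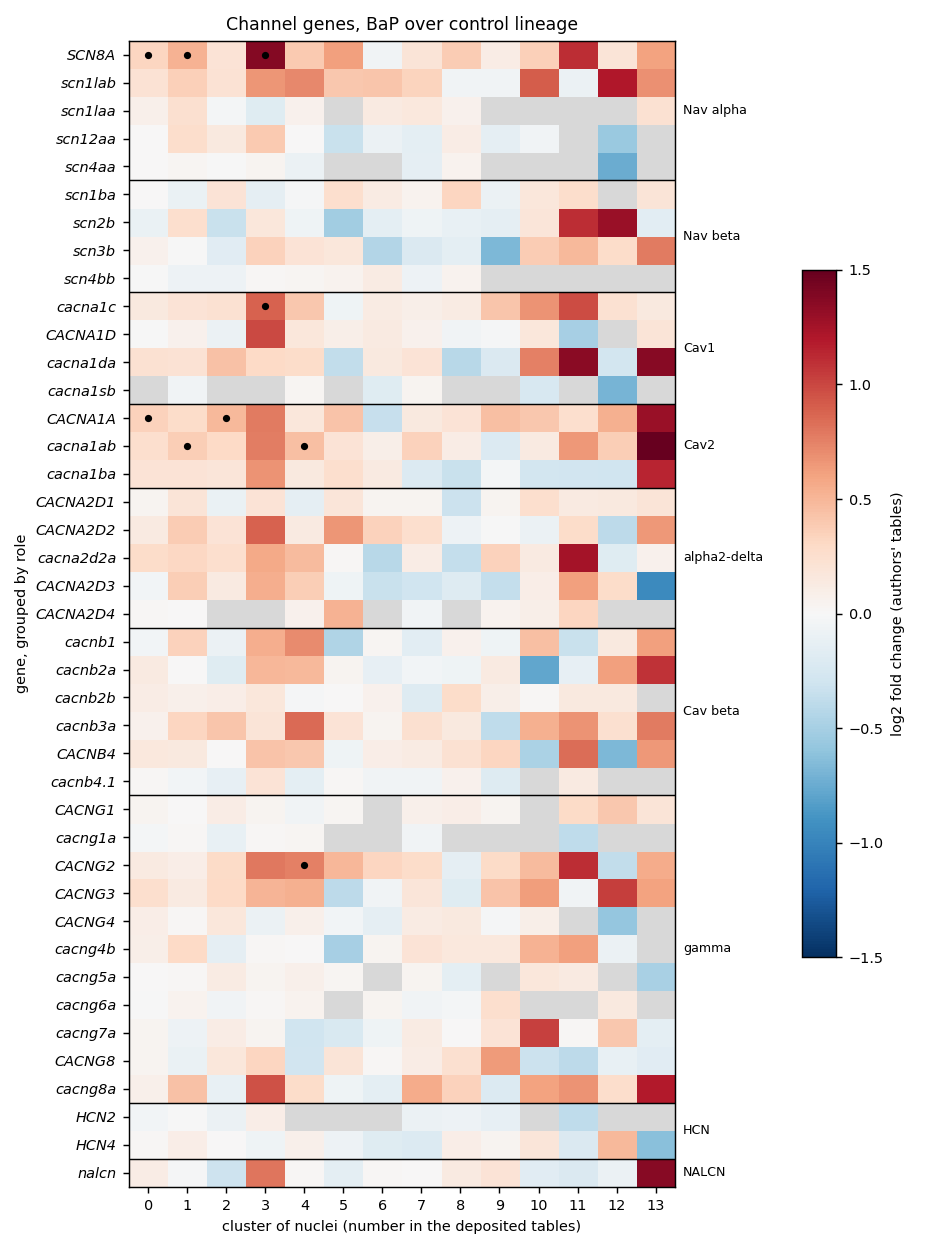
Log2 fold change, BaP over control lineage, of 41 of the 42 channel genes (rows, grouped by role) in 14 clusters (columns), from the authors' deposited tables. The colour scale ends at -1.5 and 1.5, grey marks genes that were not detected and dots mark the 9 calls. All dots lie in clusters 0 to 4.

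By cluster, most of the higher values lay in clusters 0 to 4, where the share over all genes was also highest. In these, 56 of 204 pairs had an unadjusted p under 0.05 in the higher direction and 2 in the lower (27.5% and 0.98%), against 4.48% and 2.62% of all detected genes in the same clusters, in the authors' deposited tables. In clusters 6 to 9, which hold the oligodendrocyte-like, keratin-led, endothelial and radial glia-like nuclei, the counts were 2 higher and 2 lower of 153 pairs (1.31% each), against 2.29% and 1.79% of all detected genes, in the authors' deposited tables. In clusters 5, 10 and 11, they were 10 higher and 2 lower of 105 pairs (9.52% and 1.9%), against 2.1% and 1.36% of all detected genes, in the authors' deposited tables. Cluster 12 gave 0 higher and 0 lower of 33 pairs, beside 54 higher and 41 lower of 10140 detected genes. Cluster 13 gave 1 higher and 0 lower of 30, beside 43 and 59 of 10888. In cluster 3 alone, 11 of 40 pairs were higher and 0 lower, beside 1113 higher and 79 lower of 16516 detected genes. Clusters 0 to 4 also have the most nuclei, from 540 to 1754 by the calculation, and a difference between cluster sets was not tested. The median log2 fold change of channel genes above the median level was 0.51 in cluster 3, 0.28 in cluster 4, 0.2 in cluster 1, 0.15 in cluster 2 and 0.11 in cluster 0, in the authors' deposited tables. Over all genes at that level it was 0.25, 0.07, 0.04, -0.01 and 0.01 in the authors' deposited tables. The median of channel genes was below that of all genes in cluster 6 (-0.02 against 0.06) and cluster 8 (0.04 against 0.06). The same held in cluster 9 (-0.02 against 0.09) and cluster 12 (0.19 against 0.3). It was above in clusters 5, 7, 10, 11 and 13.

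**Figure D3:**
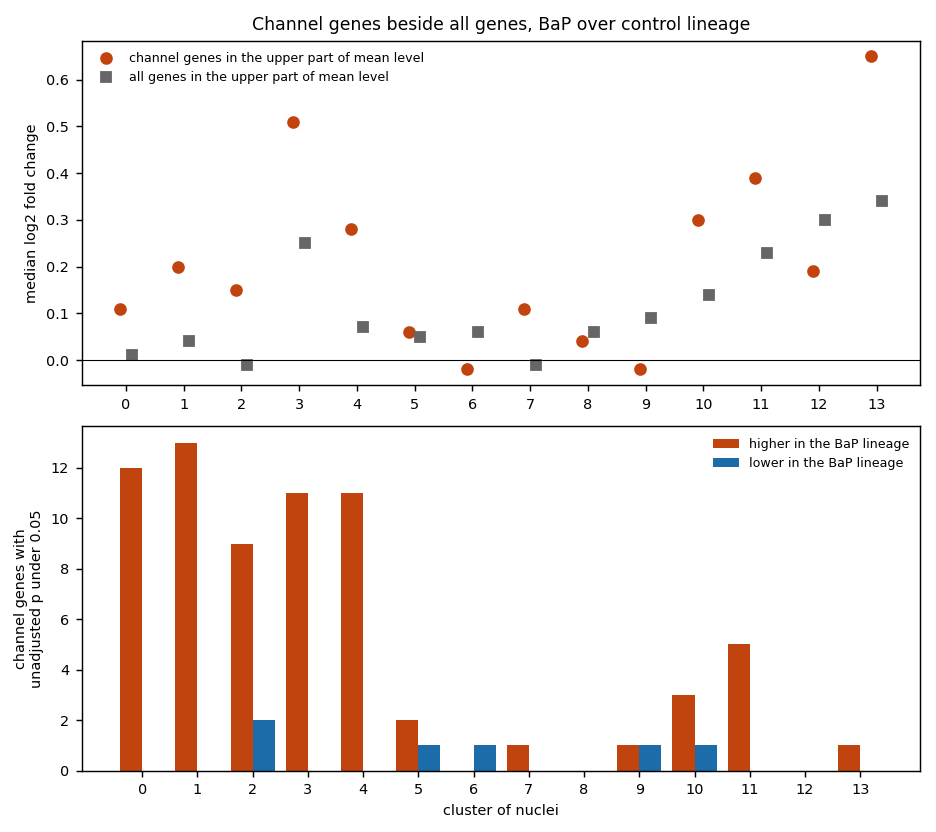
Upper panel, median log2 fold change (BaP over control lineage, authors' deposited tables) of channel genes and of all genes above the median level of detected genes, in each of 14 clusters. Lower panel, number of channel genes with an unadjusted p under 0.05, which was 12, 13, 9, 11 and 11 higher in clusters 0 to 4 against 0, 0, 2, 0 and 0 lower.

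Several measures of the nuclei also moved with the lineage. By the calculation from the authors' deposited tables, the share of levels from 13 mitochondrial genes was lower in the BaP lineage in 14 of 14 clusters, for example 28.2% against 13.7% in cluster 3, 17.6% against 8.3% in cluster 1 and, where nothing was called among channel genes, 28.9% against 16.3% in cluster 6. UMIs per nucleus were 1.17 times as many in the BaP lineage in cluster 3, 1.11 in cluster 0, 1.1 in cluster 4, 1.03 in cluster 1 and 0.968 in cluster 2, calculated from the authors' deposited tables. The 8 pan-neuronal marker genes summed to 4087 CPM in the control and 6542 CPM in the BaP lineage in cluster 3, with 7 of 8 higher, calculated from the authors' deposited tables. They summed to 8582 and 8682 CPM in cluster 0 (3 of 8 higher), 12658 and 12739.6 CPM in cluster 1 (4 of 8), 10478 and 11807 CPM in cluster 2 (7 of 8) and 9511 and 12188 CPM in cluster 4 (4 of 8), calculated from the authors' deposited tables. None of the 8 was at 0 there. In clusters 5 and 10 the 8 summed to 14588 and 19129.9 CPM (6 of 8 higher) and to 15748 and 20508 CPM (7 of 8 higher) in the control and BaP lineages. Of the 8, 1 was called higher in cluster 3, 1 higher in cluster 4 and 1 lower in cluster 1. The 7 glutamatergic markers summed to 511 CPM in the control and 985 CPM in the BaP lineage in cluster 3. In cluster 4, where 6 of 7 were detected, they summed to 247 and 511 CPM. The sums were 289 and 332 CPM in cluster 0, 266 and 367 CPM in cluster 1 and 295 and 391 CPM in cluster 2, by the same calculation. Summed levels of 4 erythrocyte markers were lower in the BaP lineage in each of clusters 0 to 4, calculated from the authors' deposited tables, for example 1412 against 639.7 CPM in cluster 0 (0 of 4 higher, 2 called lower) and 794 against 393 CPM in cluster 1 (0 of 4 higher, 1 called lower). The 8 oligodendrocyte markers summed to 489 and 338 CPM in the control and BaP lineages in cluster 0 (0 of 8 higher), to 686 and 372 CPM in cluster 2 (0 of 8 higher, 1 called lower) and to 272 and 550.3 CPM in cluster 3 (7 of 8 higher), calculated from the authors' deposited tables. Of 10 radial glia markers, 1 was called lower in cluster 0 and 1 in cluster 2. In cluster 3 these 10 summed to 391 CPM in the control and 1243 CPM in the BaP lineage, 9 of 10 were higher, 1 was called higher and slc1a2a was at 0, calculated from the authors' deposited tables. Of all detected genes, 82.9% had a log2 fold change above 0 in cluster 3, so the marker counts in that cluster lie near this share. The share was 50.5% in cluster 0, 57.4% in cluster 1, 48.8% in cluster 2 and 62.5% in cluster 4, in the authors' deposited tables. The part of these measures in the channel results was not tested.

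**Figure D4:**
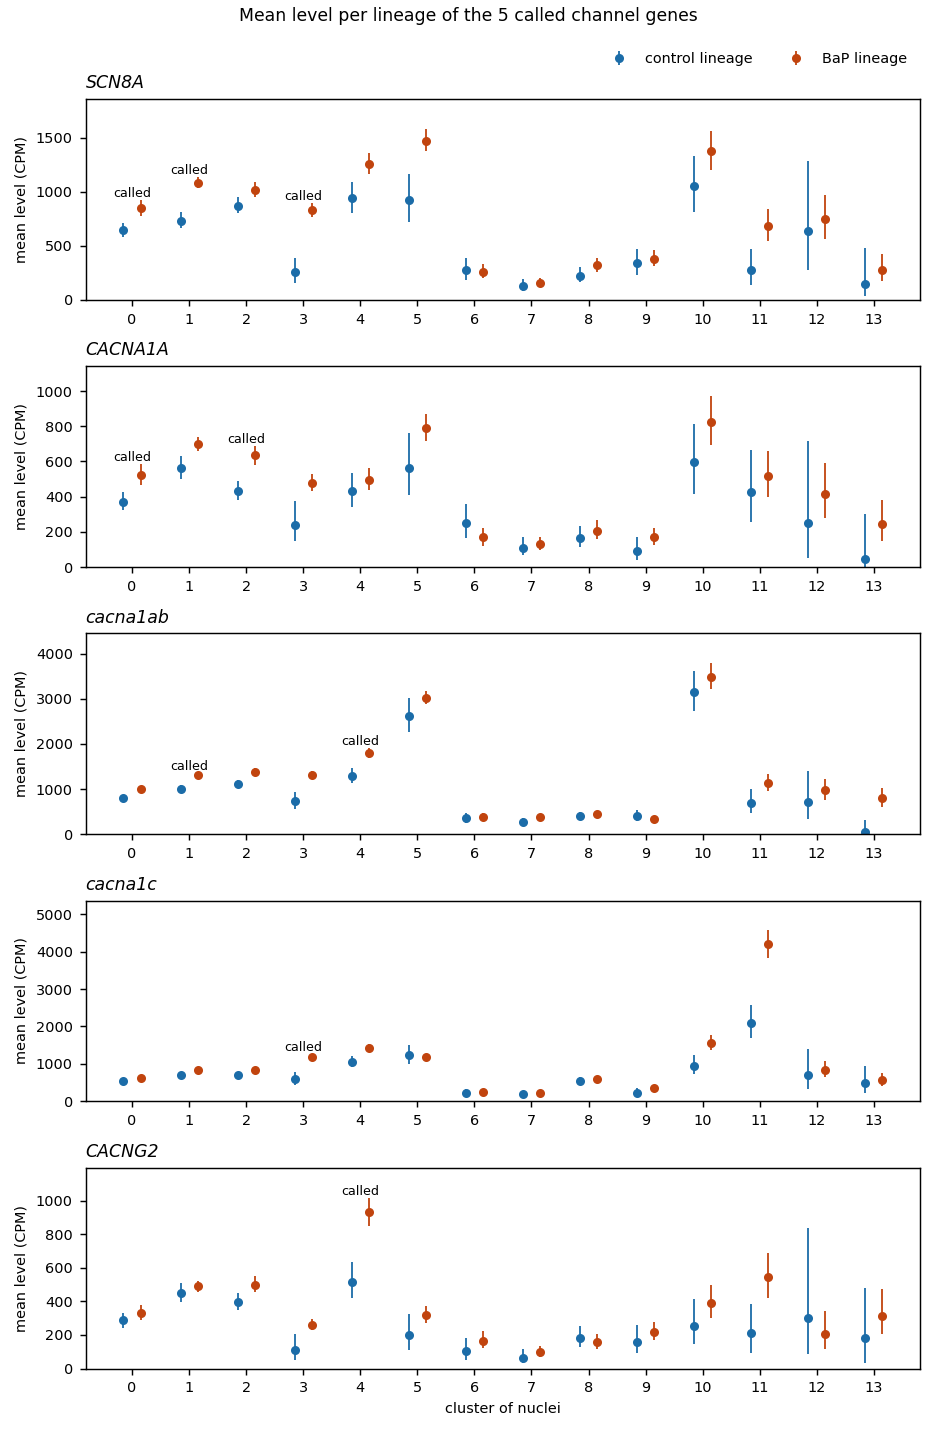
Mean level in CPM (linear axis from 0) of the 5 called channel genes in the control and BaP lineages in 14 clusters, calculated from the authors' deposited tables, with exact Poisson 95% counting intervals as bars. "Called" marks an adjusted p under 0.05; in the 9 called clusters the BaP point lies above the control point, and for SCN8A in cluster 3 the values are 261 and 832 CPM.

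The sodium channel alpha subunit SCN8A had the smallest adjusted p of all channel genes. In cluster 1 its level was 735 CPM (95% counting interval 665 to 810.5, 401 UMIs) in the control lineage and 1084 CPM (95% counting interval 1036 to 1134, 1895 UMIs) in the BaP lineage, calculated from the authors' deposited tables. The intervals, which cover counting error only, do not overlap. For a called pair this gap comes from the counts behind the call and is no separate support. The authors' deposited table gives a log2 fold change of 0.52 with an adjusted p of 1.23e-06, the 31st smallest p of all genes in that cluster. In cluster 3 its level was 261 CPM (95% counting interval 159 to 392, 21 UMIs) in the control lineage and 832 CPM (95% counting interval 771 to 894, 719 UMIs) in the BaP lineage, calculated from the authors' deposited tables. This is the largest difference among the 9 calls, at a log2 fold change of 1.38 with an adjusted p of 3.74e-05 by the authors' deposited table, the 5th smallest p of all genes there. The control value rests on 71 nuclei, the BaP value on 638. In cluster 0 its level was 646 CPM (95% counting interval 582 to 713, 382 UMIs) in the control lineage and 853 CPM (95% counting interval 781 to 929, 519 UMIs) in the BaP lineage, calculated from the authors' deposited tables. The authors' deposited table gives 0.32 there, with an adjusted p of 0.0201.

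In the upper part of mean level, genes called higher made up 0.407% in cluster 0, 0.727% in cluster 1, 0.352% in cluster 2, 0.884% in cluster 3 and 0.919% in cluster 4, in the authors' deposited tables. Of the channel genes at that level, 2 of 31, 2 of 33, 1 of 31, 2 of 30 and 2 of 26 were. In the other clusters SCN8A did not pass the test, with log2 fold changes of 0.21 in cluster 2, 0.39 in cluster 4, 0.62 in cluster 5, -0.05 in cluster 6, 0.19 in cluster 7 and 0.38 in cluster 8, and of 0.11 in cluster 9, 0.36 in cluster 10, 1.11 in cluster 11, 0.19 in cluster 12 and 0.6 in cluster 13, in the authors' deposited tables. It was above 0 in 13 of 14 clusters. The clusters come from the same 6 fish, so these signs are not independent. Of all detected genes, 48.8% (cluster 2) to 82.9% (cluster 3) were above 0 by cluster. The SCN8A level in cluster 5, where the gene is highest, was 924 CPM in the control and 1475 CPM in the BaP lineage, calculated from the authors' deposited tables. These levels rest on 60 control and 431 BaP nuclei, and the summed pan-neuronal markers were also higher there, as given above.

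The paralogous alpha subunit scn1lab did not pass the adjusted threshold in any cluster. Its unadjusted p was under 0.05 in 5 clusters, with log2 fold changes of 0.22 in cluster 0, 0.36 in cluster 1, 0.66 in cluster 3, 0.72 in cluster 4 and 0.91 in cluster 10 in the authors' deposited tables. In cluster 4, its adjusted p of 0.0797 was just above the threshold, and its level was 136 CPM (95% counting interval 88 to 201, 25 UMIs) in the control lineage and 287 CPM (95% counting interval 243 to 338, 148 UMIs) in the BaP lineage, calculated from the authors' deposited tables. The other 3 alpha subunits were rare, with 12 to 142 UMIs. Of the 57 detected pairs of the 5 alpha subunits, 14 had an unadjusted p under 0.05 higher and 0 lower by the authors' deposited tables. SCN8A gave 7 of the 14 and scn1lab 5. Over all detected pairs of gene and cluster, 2.97% were higher and 1.92% lower at that p. These shares also stand beside the counts by role below.

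The sodium channel beta subunits gave no such pattern. Of their 50 detected pairs, 0 had an unadjusted p under 0.05 higher and 3 lower, and none was called, by the authors' deposited tables. scn2b had a log2 fold change of -0.33 in cluster 2 (unadjusted p = 0.0104), with 398 to 302 CPM from control to BaP lineage. In cluster 9, scn3b had -0.67 (unadjusted p = 0.00624) in the authors' deposited table, from 9 UMIs in the control and 4 in the BaP lineage. Alpha and beta subunits were not tested against each other.

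Both Cav2.1 genes were called higher, CACNA1A in clusters 0 and 2 and cacna1ab in clusters 1 and 4. A difference between them was not tested. In cluster 0, CACNA1A was at 372 CPM (95% counting interval 324 to 424, 220 UMIs) in the control lineage and 525 CPM (95% counting interval 468 to 585, 319 UMIs) in the BaP lineage, calculated from the authors' deposited tables. Its log2 fold change was 0.35 with an adjusted p of 0.0324 by the authors' deposited table. In cluster 2 it was at 432 CPM (95% counting interval 382 to 487, 272 UMIs) in the control lineage and 634 CPM (95% counting interval 581 to 688, 551 UMIs) in the BaP lineage, calculated from the authors' deposited tables, with a log2 fold change of 0.49 and an adjusted p of 0.00711 by the authors' deposited table. In both clusters the BaP interval lies above the control interval. The pairs were chosen by calls from the same counts, so this is no separate support. In the clusters where it was not called, CACNA1A had log2 fold changes of 0.28 in cluster 1, 0.78 in cluster 3, 0.17 in cluster 4, 0.43 in cluster 5, -0.35 in cluster 6 and 0.15 in cluster 7, and of 0.2 in cluster 8, 0.45 in cluster 9, 0.41 in cluster 10, 0.25 in cluster 11, 0.53 in cluster 12 and 1.29 in cluster 13, in the authors' deposited tables. All but cluster 6 were above 0, in clusters that share the same 6 fish.

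cacna1ab is the other Cav2.1 gene. In cluster 1 its level was 996 CPM (95% counting interval 913 to 1082, 543 UMIs) in the control lineage and 1303 CPM (95% counting interval 1251 to 1358, 2278 UMIs) in the BaP lineage, calculated from the authors' deposited tables, with a log2 fold change of 0.37 and an adjusted p of 0.0103 by the authors' deposited table. In cluster 4 it was 1288 CPM (95% counting interval 1130.3 to 1464, 237 UMIs) in the control lineage and 1797 CPM (95% counting interval 1684 to 1918, 925 UMIs) in the BaP lineage, calculated from the authors' deposited tables, with a log2 fold change of 0.45 and an adjusted p of 0.0356 by the authors' deposited table. The intervals are apart in both, which is no separate support because the call rests on the same counts. Just outside the threshold lay cluster 2, with 0.3 and an adjusted p of 0.0509, and cluster 3, with 0.77 and 0.0695, in the authors' deposited tables. Elsewhere its log2 fold changes were 0.25 in cluster 0, 0.2 in cluster 5, 0.09 in cluster 6, 0.35 in cluster 7, 0.11 in cluster 8 and -0.21 in cluster 9, and 0.14 in cluster 10, 0.65 in cluster 11 and 0.37 in cluster 12, in the authors' deposited tables. In cluster 13 the authors' deposited table gives 2.68 (unadjusted p = 0.0023), which rests on 1 UMI in the control lineage and 62 in the BaP lineage. Without the constant added before the ratio is taken, the log2 ratio and its 95% counting interval are 4.03 (1.33 to 9.19). In the 2 clusters where cacna1ab is highest, 5 and 10, it was not called. cacna1ba, the Cav2.2 gene, was not called in any cluster.

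Of the Cav1 genes, cacna1c was called higher in the glutamatergic neuron-like cluster 3. Its level there was 598 CPM (95% counting interval 442 to 790.3, 49 UMIs) in the control lineage and 1177 CPM (95% counting interval 1107 to 1252, 1019 UMIs) in the BaP lineage, calculated from the authors' deposited tables. The authors' deposited table gives a log2 fold change of 0.88 with an adjusted p of 0.0379, beside a median of 0.25 over all genes above the median level of that cluster. Scaling both lineages to equal totals lowers the value without the prior count (a constant added before the ratio is taken) from 0.98 to 0.6. Without the prior count, the same scaling raised CACNA1A from 0.5 to 0.62 in cluster 0 and from 0.55 to 0.75 in cluster 2. SCN8A went up from 0.4 to 0.53 in cluster 0 and from 0.56 to 0.68 in cluster 1. cacna1ab went up from 0.39 to 0.51 in cluster 1. The scaling lowered SCN8A in cluster 3 from 1.67 to 1.3. In cluster 4 it lowered cacna1ab from 0.48 to 0.45 and CACNG2 from 0.85 to 0.82. Elsewhere cacna1c had log2 fold changes of 0.15 in cluster 0, 0.21 in cluster 1, 0.23 in cluster 2 and 0.4 in cluster 4. It had -0.06 in cluster 5, 0.12 in cluster 6, 0.09 in cluster 7, 0.12 in cluster 8 and 0.42 in cluster 9. In clusters 10, 11, 12 and 13 it had 0.67, 0.98, 0.23 and 0.15. These values are from the authors' deposited tables, and none passed the test. In cluster 11, where it is most abundant, its level was 2090.2 CPM (95% counting interval 1690.1 to 2565, 93 UMIs) in the control lineage and 4189.7 CPM (95% counting interval 3841 to 4565, 526 UMIs) in the BaP lineage, calculated from the authors' deposited tables. Marker genes of cluster 11 also differed between the lineages, as given with cacna2d2a below.

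The Cav1.3 gene CACNA1D, most abundant in cluster 3, had a log2 fold change of 0.99 and an adjusted p of 0.0824 there in the authors' deposited table. Its paralog cacna1da had unadjusted p-values under 0.05 in 3 clusters, with 0.23 in cluster 0, 0.44 in cluster 2 and 1.35 in cluster 11, in the authors' deposited tables. The last of these rests on 5 control and 53 BaP UMIs. Of 47 detected Cav1 pairs, 11 had an unadjusted p under 0.05 higher and 0 lower by the authors' deposited tables. For Cav2 the counts were 12 and 0 of 42.

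The TARP gene CACNG2 was called higher in cluster 4, the cluster in which it is highest. Its level was 516 CPM (95% counting interval 418 to 632, 95 UMIs) in the control lineage and 931 CPM (95% counting interval 849.6 to 1018, 479 UMIs) in the BaP lineage, calculated from the authors' deposited tables. The authors' deposited table gives a log2 fold change of 0.75 with an adjusted p of 7.73e-04, the 25th smallest p of all genes there. Elsewhere its log2 fold changes were 0.13 in cluster 0, 0.1 in cluster 1, 0.29 in cluster 2, 0.79 in cluster 3, 0.5 in cluster 5 and 0.32 in cluster 6, and 0.28 in cluster 7, -0.14 in cluster 8, 0.29 in cluster 9, 0.48 in cluster 10, 1.11 in cluster 11, -0.37 in cluster 12 and 0.56 in cluster 13, in the authors' deposited tables, without passing the test. Among the other TARP genes, cacng8a had 0.95 in cluster 3 with an adjusted p of 0.0906 by the authors' deposited table, and 0.44 in cluster 1 and 0.56 in cluster 7 at unadjusted p under 0.05. CACNG3 had 0.25 in cluster 0, 0.3 in cluster 2 and 0.53 in cluster 4 at unadjusted p under 0.05 by the authors' deposited tables. The gamma gene cacng7a had 1.02 in cluster 10 (unadjusted p = 0.0115) in the authors' deposited table, from 0 control and 17 BaP UMIs. Of 135 detected gamma pairs, 13 had an unadjusted p under 0.05 higher and 1 lower. The lower one was cacng4b in cluster 5, at -0.5 with 3 control and 1 BaP UMIs and a log2 ratio, with its counting interval, of -4.51 (-10.14 to -0.79) without the prior count.

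No alpha2-delta or calcium channel beta gene was called. The alpha2-delta gene cacna2d2a had unadjusted p-values under 0.05 in 5 clusters, with log2 fold changes of 0.27 in cluster 0, 0.31 in cluster 1, 0.25 in cluster 2, 0.48 in cluster 4 and 1.25 in cluster 11 in the authors' deposited tables. In cluster 4 its adjusted p was 0.0779. In cluster 11, where it is highest, its level was 2303 CPM (95% counting interval 1873 to 2788, 102 UMIs) in the control lineage and 5604 CPM (95% counting interval 5195 to 6031, 703 UMIs) in the BaP lineage, calculated from the authors' deposited tables, with an unadjusted p of 0.0044 and an adjusted p of 1 by the authors' deposited table. The counting intervals there do not overlap, and the adjusted test did not pass. Cluster 11 held 32 control and 78 BaP nuclei by the calculation. Its 10 markers of Purkinje or eurydendroid neurons summed to 5177 CPM in the control and 11300.1 CPM in the BaP lineage. The 8 pan-neuronal markers summed to 4125 and 4964 CPM there. The part of such shifts in the channel values of cluster 11 was not tested. CACNA2D2 had 0.38 in cluster 1, 0.89 in cluster 3 and 0.66 in cluster 5 at unadjusted p under 0.05 by the authors' deposited tables. Alpha2-delta pairs at that level numbered 9 higher and 0 lower of 64.

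Among the beta subunits, cacnb3a had 0.32 in cluster 1, 0.42 in cluster 2 and 0.85 in cluster 4 at unadjusted p under 0.05 by the authors' deposited tables. cacnb2a, highest in cluster 4, had 0.49 there (unadjusted p = 0.00517) and -0.78 in cluster 10 (unadjusted p = 0.0306) in the authors' deposited tables. The latter was the lowest log2 fold change of any channel gene with an unadjusted p under 0.05, with 19 control and 23 BaP UMIs. Of 80 detected beta pairs, 8 had an unadjusted p under 0.05 higher and 1 lower.

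No HCN or NALCN pair was called, where 0.186% of all detected pairs were called higher and 0.214% lower. Of the 36 detected HCN pairs, 1 had an unadjusted p under 0.05 higher and 0 lower by the authors' deposited tables. Over all detected pairs the shares at that p were 2.97% and 1.92%. nalcn had -0.31 in cluster 2 (unadjusted p = 0.026) and 0.8 in cluster 3 (unadjusted p = 0.014) in the authors' deposited tables. Its direction thus differed between these clusters, and neither value passed the test.

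Proteins that bind or regulate these channels, or that TARPs bind, were counted from a list of 58 names, of which 36 matched 43 genes. Of their 573 detected pairs, 14 rose (2.44%) and 1 fell, at the authors' adjusted p under 0.05, by the authors' deposited tables. Over all detected pairs of gene and cluster the shares were 0.186% higher and 0.214% lower. Above the median level of detected genes they were 0.372% and 0.415%, and the partners were not counted at that level. The list was chosen with earlier results of these data known, and no test of it was made. The AMPA receptor subunit genes gria1a, gria3a, gria4a and gria4b gave 7 of the 14, in clusters 0, 1, 2 and 4. Among partners of sodium channels, nfasca (neurofascin, of the axon initial segment) rose in cluster 0 by a log2 fold change of 0.42 (adjusted p = 0.00504), and NEDD4L, a ubiquitin ligase that in mammals removes sodium channels from the membrane, fell in cluster 1, at -0.51 (adjusted p = 0.0405), in the authors' deposited tables. fgf11a, of the fibroblast growth factor homologous factors that bind sodium channels, rose in the oligodendrocyte-like cluster 6, at 1.43 (adjusted p = 3.98e-05). In that cluster 66 of 14529 detected genes were called higher and 15 lower. Its 8 oligodendrocyte markers summed to 8129 CPM in the control and 13155 CPM in the BaP lineage, with 7 of 8 higher and 3 called higher. The part of this in the fgf11a value was not tested. NALF1, an auxiliary subunit of the NALCN complex, rose in cluster 2, at 0.57 (adjusted p = 7.05e-04), where nalcn itself had -0.31 and was not called, in the authors' deposited tables. Among further partners, CNIH2, which binds AMPA receptors, rose in cluster 1 at 0.73 (adjusted p = 5.59e-04), in the authors' deposited tables. calm2a (calmodulin) rose in cluster 3 at 1.02 (adjusted p = 0.00394), and CASK, a presynaptic scaffold, in cluster 4 at 0.65 (adjusted p = 0.0221), in the authors' deposited tables.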

How the data were processed

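Whole-brain nuclei of 6 fish, 3 per lineage, were profiled with 10x Chromium 3' libraries in 1 sequencing batch, per the labels' protocols. Cell Ranger is named, with no version, by the submitters' processing notes. Per the series design text, alignment was to a medaka assembly, followed by aggregation of the libraries and a comparison of the lineages cluster by cluster. The sources used here do not state how nuclei were filtered and clustered, how doublets and free RNA were handled, or which tool and replicates that comparison used.

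The authors deposited 14 tables of 24365 genes, of which 14025 have a symbol. Per the file headers, the columns are a log2 fold change, a log2 mean CPM, a p-value and a false discovery rate. Benjamini-Hochberg adjustment of the deposited p-values over all genes of a table returned the deposited false discovery rates to within 2e-13. The direction of the fold change, BaP over control lineage, comes from the group coding in the table names.

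No test was added to those of the authors. Nuclei, UMIs and CPM per lineage were worked out from the deposited log2 values and p-values, assuming a negative-binomial exact test on nuclei with prior counts of 0.125 for fold changes and 2 for mean levels, which no source states. Levels per lineage then summed to 889760 to 1242217 CPM and not to the same total in both. The worked-out levels are therefore approximate. In simulated tables of 24365 genes modelled on clusters 3 and 4, the numbers of nuclei came back without error. Of changed genes with at least 3 UMIs in each lineage, 131 of 144 in the first and 186 of 197 in the second had the simulated sign. Measured against the ratio of the simulated counts, their log2 fold changes without the prior count had median errors of 0.0322 and 0.146. Simulated levels summed to 1005245 CPM in the control and 1005575 CPM in the BaP lineage for cluster 3. For cluster 4 they summed to 987126 and 988380 CPM. The deposited tables gave 889760 and 1152946 CPM in cluster 3, and 1110069 and 1131723 CPM in cluster 4. The gap between the lineages in cluster 3 was thus absent from its simulated table, and its cause was not tested. The simulation shares the assumptions and tests the arithmetic alone, so it cannot show that they hold for these data. Intervals are exact Poisson 95% intervals and cover counting error only. Depth per fish is unknown.

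The members and all lists were chosen with earlier results of these data known. Comparison values are given for members called at an adjusted p under 0.05, for the member with the highest mean level in each role, for uncalled members with an unadjusted p under 0.05 in the most clusters (ties at 3 clusters are all given) and for the 3 lowest and 3 highest fold changes among these. Called partners are named. Of the members and partners that this rule takes, 2 are not reported here by name, though the counts include them. Symbols of 14 of the 42 members matched the RefSeq gene table of assembly ASM223467v1, another build, so no coordinates or sequences are printed. Alternatives varied the threshold, adjustment, minimum fold change, expression filter, clusters, centring and prior count. Fits to single fish were not run. Python 3.11 with numpy 2.4.6, pandas 2.3.3, scipy 1.17.1 and matplotlib 3.10.9 was used.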

Additional observations from a re-analysis of the deposited data

How the results depend on the processing

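The 9 calls in 5 genes, all higher, came to 15 calls in 9 genes at an adjusted p under 0.1 and to 19 calls in 11 genes when only genes above the median level of detected genes were tested and adjusted. They came to 3 calls in 2 genes (SCN8A in clusters 1 and 3, CACNG2 in cluster 4) under Bonferroni adjustment and to 1 call in 1 gene (SCN8A in cluster 3) when a minimum log2 fold change of 1 was set. Adjusting over detected genes gave 11 calls, adjusting over all 14 tables together 7, and leaving out clusters 12 and 13 or centring on the cluster's median 9, each in 5 genes. Leaving out cluster 3, an alternative chosen after seeing the data, gave 7 calls in 4 genes. Calls in the lower direction were 0 in the authors' deposited tables and under each of these settings, beside 6 pairs lower at an unadjusted p under 0.05. The median log2 fold change of detected channel genes was near 0 in clusters 6, 8 and 9 (0.03, 0.05 and 0.02) and 0.15 in cluster 12, and its sign turned in all 4. In cluster 6 it was -0.02 for genes above the median level, -0.01 as a mean and -0.07 without the prior count. In cluster 8 it was -0.05 and in cluster 12 -0.14 without the prior count. In cluster 9 it was -0.02 above the median level, -0.03 without the gamma genes and -0.11 without the prior count. Each median without the prior count covers only genes with at least 3 UMIs in each lineage, so the set of genes changed as well. Under this setting the median was 0.34 in cluster 0 and 0.98 in cluster 3, where 0.07 and 0.31 were tabled. In cluster 13 it was 0.17, where 0.6 was tabled. The parts of the prior count and of the changed set were not tested apart. No paired analysis was possible because the tables carry no values per fish, and leaving out each fish in turn was not run for the same reason.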
